A study of Homo sapiens with 6 samples.

Results

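The 10 genes described here are members of the BCL2 family other than its best known direct p53 targets: BCL2, BCL2L1, MCL1 and BCL2A1, which protect cells, BAK1, which kills them, and BCL2L11, BID, BAD, BMF and BIK, which act on the others. They were chosen by symbol, with earlier results of these data known. All 10 were found among the 60609 genes counted and among the 20725 genes tested. OCI-AML5, an established cell line of human acute myeloid leukemia, was grown in serum-containing medium with the cytokine GM-CSF. Both groups shared this culture, and they differed in what was added for 24 hours: 1 µM S767, a compound that came from a screen of leukemia specimens, or its solvent DMSO. Polyadenylated RNA was sequenced in strand-specific libraries, 3 per group. The data come from this 1 line, at 1 dose and 1 time.

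Proteins of the BCL2 family decide whether the outer membrane of mitochondria is opened during apoptosis. Pro-survival members hold the effectors BAK1 and BAX in check, and BH3-only proteins, named for a short helix that fits a groove on their partners, either occupy the pro-survival members or activate the effectors directly. Myeloid leukemia cells commonly depend on BCL2 or MCL1 for survival, and cytokines such as GM-CSF help to maintain MCL1 and BCL2L1.

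In S767, 8 of the 10 genes were measured close to their level in DMSO, and the other 2, BCL2A1 and BIK, were too uncertain to place. The fold change of the 8 genes above 1 TPM (transcript abundance per length, scaled to the same total in every library) ranged from -0.02 to 0.14 on the log2 scale. By the quasi-likelihood test of edgeR, 0 of the 10 passed an unadjusted P value of 0.05, where 3.53% of all genes tested did. BCL2A1 and BIK stayed under 1 TPM in every library, with estimates of -0.31 (95% interval -1.09 to 0.47) and 0.29 (-0.53 to 1.12). With all 6 libraries, BMF, a BH3-only gene, was the 1 gene that passed an adjusted limit, and this was when libraries with the same replicate number were treated as pairs. In that paired fit 3.23% of all genes tested passed.

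The BH3 core is the stretch by which these proteins recognise each other, and it is shown as coding sequence because it is the feature that runs through all 3 roles. GENCODE 29 transcripts on GRCh38 were searched, in the reading frame on the coding strand, for codons of leucine, any 3 residues, then glycine, alanine or serine, then aspartate. Of the 10 coding sequences, 9 held a match and BCL2A1 held none. The capitals below mark the 18 bases of the match, with 4 codons on each side, and each stretch lies within 1 coding exon.
BCL2, chr18:63318349-63318390, minus strand: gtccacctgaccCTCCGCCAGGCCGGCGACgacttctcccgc
MCL1, chr1:150578865-150578906, minus strand: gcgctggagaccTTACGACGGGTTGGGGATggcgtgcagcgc
BAK1, chr6:33575387-33575428, minus strand: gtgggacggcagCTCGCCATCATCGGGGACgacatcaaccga
BCL2L11, chr2:111150091-111150132, plus strand: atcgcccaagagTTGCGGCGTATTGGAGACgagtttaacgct
BID, chr22:17739415-17739456, minus strand: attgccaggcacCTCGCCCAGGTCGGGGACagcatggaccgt
BAD, chr11:64271622-64271663, minus strand: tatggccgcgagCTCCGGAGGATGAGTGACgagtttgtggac
BMF, chr15:40104195-40104236, minus strand: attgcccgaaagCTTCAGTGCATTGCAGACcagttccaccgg

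The residue before the aspartate was glycine in 7 of the genes with a match, serine in BAD and alanine in BMF. BID held 2 matches. The one printed starts at codon 136 and is its known BH3 stretch, and the other starts at codon 71. A match describes these letters only, and the absence of one in BCL2A1 says nothing of its binding.

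A second feature separates the roles. The codons of asparagine, tryptophan, glycine and arginine in a row, the signature of the BH1 region that helps to form the groove, were present in 5 genes, which were the 4 pro-survival genes and BAK1. They were absent from the 5 BH3-only genes. BCL2 and BAK1 are shown with the 12 bases of this signature in capitals, because they carry the same signature in proteins of opposite function.
BCL2, chr18:63318217-63318252, minus strand: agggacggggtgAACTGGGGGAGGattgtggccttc
BAK1, chr6:33574172-33574207, minus strand: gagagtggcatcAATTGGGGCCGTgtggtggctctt

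The libraries held 149994700 to 258029564 fragments counted on genes. Of 14 myeloid leukemia markers, 10 were above 1 TPM in every library, among them CD33 at 88.57 to 105.87 TPM and SPI1 at 213.74 to 258.5 TPM, while KIT, ELANE and CD14 were under 1 TPM. The summed level of this list was 784 to 1190 TPM in DMSO and 777 to 1190 TPM in S767. No more than 1 gene in each list of 5 B cell, T cell, erythroid, epithelial or fibroblast markers exceeded 1 TPM throughout. In bulk RNA, fewer cells and less RNA per cell cannot be told apart. The methods describe the treatment as done in triplicate, and how far the 3 cultures were independent is not given in the sources used here, so P values measure only the spread between these libraries. Libraries with the same replicate number deviated together, and results that depend on this pairing are given both ways.

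Measured per transcript length, BID and MCL1 were the most abundant of the 10 genes, at a mean over all 6 libraries of 138 and 129 TPM. BID, which is cleaved after death receptor signalling to become active, ranged from 132.37 to 144.41 TPM. MCL1, a short-lived protein that binds BAK1, ranged from 114.74 to 141.95 TPM. These ranges overlapped, although BID was above MCL1 in 6 of 6 libraries. Next came BCL2 at 56.6, BCL2L1 at 34.1, BAD at 29.3 and BAK1 at 20.2 TPM, with no overlap between neighbours. BMF at 12.6 TPM and BCL2L11 at 10.5 TPM overlapped, and BMF was the higher of them in 5 of 6 libraries. BCL2A1 at 0.515 TPM and BIK at 0.112 TPM were far below.

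**Figure D1:**
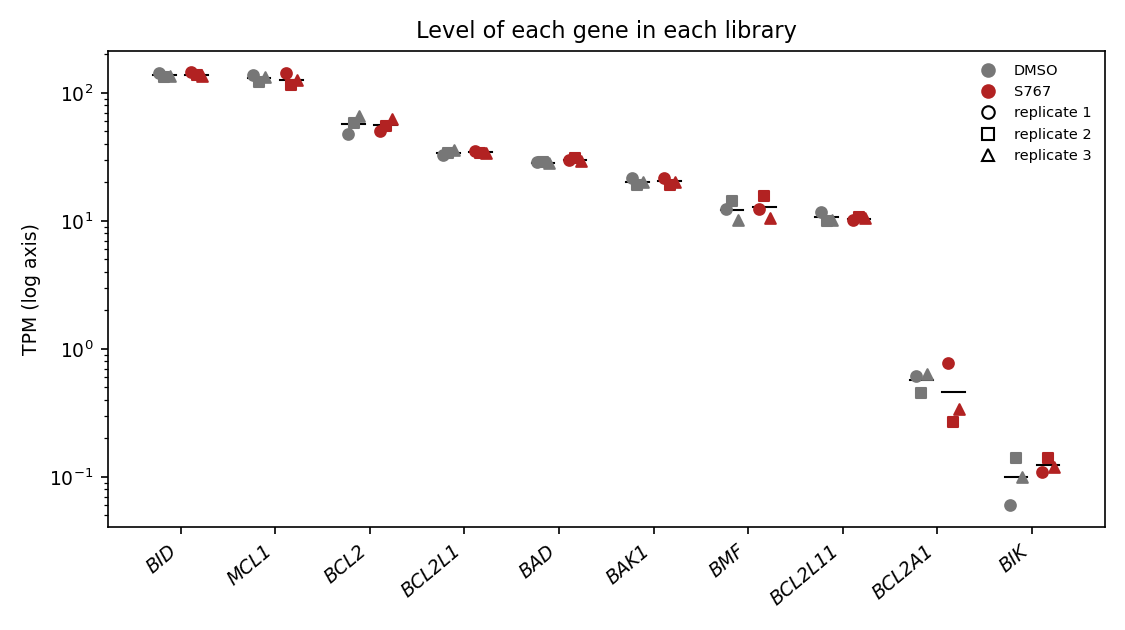
Level of each gene in TPM (log axis) in the 3 DMSO libraries (grey) and the 3 S767 libraries (red), with marker shape for replicate number and a bar at each group mean. The 8 genes from BID to BCL2L11 lie between 10.03 and 144.41 TPM with grey and red points side by side, and BCL2A1 and BIK lie under 1 TPM.

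Summed by role, the levels of the groups lay side by side. The 4 pro-survival genes together reached 220.2, 214.8 and 233.9 TPM in DMSO replicates 1 to 3 and 228.1, 203.4 and 221.9 TPM in S767. The 5 BH3-only genes together reached 195.0, 185.5 and 185.0 TPM in DMSO and 196.8, 195.1 and 185.1 TPM in S767. Both sums overlapped between the groups. BID alone made up 70.4 to 73.8% of the BH3-only sum, and MCL1 made up 56.4 to 63.1% of the pro-survival sum. The BH3-only sum leaves out PMAIP1 (38.7 TPM in DMSO, 30.7 in S767) and BBC3 (11.0 and 12.6 TPM), BH3-only genes described below. BAX, the other effector, was present at 11.5 to 13.4 times the level of BAK1 in TPM.

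BCL2, the target of the drug venetoclax, differed more between replicate numbers than between treatments. Its levels in CPM (the count of a gene scaled to the normalised library size, which is comparable between libraries but not between genes) were 261, 324 and 354 in DMSO replicates 1 to 3 and 270, 312 and 348 in S767 replicates 1 to 3. Replicate 1 was the lowest and replicate 3 the highest in both groups, and the groups overlapped. The mean was 313 ± 47.5 CPM in DMSO and 310 ± 39.3 CPM in S767 (SD, n = 3), a log2 fold change of -0.01 (SE 0.120, 95% interval -0.29 to 0.26, two-sided exact permutation p = 0.9). With the replicate number as a block the estimate was again -0.01, with a narrower interval of -0.06 to 0.04 (edgeR adjusted p = 0.896).

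MCL1 differed from BCL2 in the place of replicate 1, which was its highest. Its CPM were 392, 346 and 370 in DMSO and 393, 334 and 363 in S767, highest in replicate 1 and lowest in replicate 2 of each group. The mean was 369 ± 22.9 CPM in DMSO and 364 ± 29.8 CPM in S767, with a log2 fold change of -0.02 (SE 0.067, interval -0.18 to 0.13, exact permutation p = 0.8). The ratio of MCL1 to BCL2 in TPM was 2.90, 2.08 and 2.02 in DMSO and 2.82, 2.10 and 2.00 in S767. This ratio followed the replicate number and not the treatment.

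BCL2L1, which encodes BCL-XL, varied little. It measured 46.9, 48.5 and 51.9 CPM in DMSO and 49.0, 50.5 and 49.9 CPM in S767. The S767 values fell inside the DMSO range, and the log2 fold change was 0.02 (SE 0.048, interval -0.09 to 0.13, exact permutation p = 0.6).

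BCL2A1, a pro-survival gene induced by NF-kappaB in blood cells, was measured on few fragments. It was counted on 62, 32 and 73 fragments in DMSO and on 79, 25 and 30 in S767, which is 0.284, 0.215 and 0.282 CPM against 0.332, 0.140 and 0.152 CPM. The groups overlapped, and S767 replicate 1 was the highest of all 6 libraries. The log2 fold change of -0.31 had an interval of -1.09 to 0.47 (SE 0.342, exact permutation p = 0.4), an interval that holds changes of moderate size in either direction. Without S767 replicate 1 the value was -0.84 (edgeR adjusted p = 0.931), and without S767 replicate 2 it was -0.10.

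BAK1, the effector that forms pores in the mitochondrial outer membrane, measured 28.6, 25.1 and 26.5 CPM in DMSO and 28.2, 25.8 and 27.0 CPM in S767. Replicate 1 was the highest and replicate 2 the lowest in both groups. The log2 fold change was 0.02 (SE 0.062, interval -0.13 to 0.16, exact permutation p = 0.8). RSEM, which shares out fragments that map to several places, assigned BAK1 112 to 115% of the STAR count, against 92.2 to 99.3% for the other 7 genes above 1 TPM. The files also list the pseudogenes BAK1P1 and BAK1P2, so the level of BAK1 is uncertain by about this much. Their part in the gap was not tested.

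BAX, the effector kept apart here as a p53 target, had a log2 fold change of 0.08 (SE 0.065, exact permutation p = 0.4). With the replicate number as a block it was again 0.08 (SE 0.028, interval 0.02 to 0.15, edgeR adjusted p = 0.131). BAX was higher in S767 in all 3 pairs, as were 19.9% of all genes tested.

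Among the BH3-only genes, BCL2L11, which encodes BIM, an activator of both effectors, gave the smallest difference. It measured 33.8, 36.8 and 34.8 CPM in DMSO and 34.9, 34.6 and 36.0 CPM in S767. The groups overlapped, with means of 35.1 ± 1.52 and 35.2 ± 0.719 CPM, and the log2 fold change of 0.002 had an interval of -0.11 to 0.11 (SE 0.048, exact permutation p = 0.9).

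BID measured 114, 110 and 107 CPM in DMSO and 110, 114 and 115 CPM in S767. The groups overlapped, and the log2 fold change was 0.03 (SE 0.039, interval -0.05 to 0.12, exact permutation p = 0.3). Without replicate 1 and with the block, BID reached 0.08 (edgeR adjusted p = 0.0377). It was 0.02 without replicate 2 and -0.00021 without replicate 3 (adjusted p = 0.918 and 0.999). The share of all genes that passed in these fits is not given here.

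BAD, which binds BCL2 and BCL-XL and is held inactive by phosphorylation, was the only one of the 10 genes whose groups did not overlap. It measured 15.3, 15.2 and 15.1 CPM in DMSO and 15.4, 17.4 and 16.2 CPM in S767, so that the lowest S767 library lay just above the highest DMSO library. Of all genes tested, 9.21% had groups that did not overlap, and 1 of 10 is near that background. The mean was 15.2 ± 0.0916 CPM in DMSO and 16.3 ± 0.993 CPM in S767, a log2 fold change of 0.10 (SE 0.062, interval -0.04 to 0.24). The two-sided exact permutation test gave 0.1, the smallest p that 3 libraries against 3 allow. With the block the value was 0.09 (SE 0.041, edgeR adjusted p = 0.263). With the block and without replicate 1 it was 0.14 (adjusted p = 0.0299), a fit whose share of all genes is not given here. It was 0.05 without replicate 2 and 0.09 without replicate 3 (adjusted p = 0.835 and 0.422). BAD overlaps GPR137 on the opposite strand over 14643 bases, and 4.81 to 9.07% of the fragments at BAD came from that strand.

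BMF, a BH3-only protein that is tied to the cytoskeleton in healthy cells, had the largest fold change of the 8 genes above 1 TPM. It measured 33.9, 39.9 and 28.9 CPM in DMSO replicates 1 to 3 and 35.1, 45.6 and 32.0 CPM in S767 replicates 1 to 3. The groups overlapped, since replicate 2 was the highest and replicate 3 the lowest in each, but S767 was above DMSO in all 3 pairs, by 0.05, 0.19 and 0.15 on the log2 scale. Of all genes tested, 19.9% were higher in all 3 pairs. Without the pairing, the change from 34.2 ± 5.49 to 37.6 ± 7.1 CPM had a log2 fold change of 0.14 (SE 0.146, interval -0.20 to 0.47, exact permutation p = 0.6).

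With the replicate number as a block, the log2 fold change of BMF was 0.13 (SE 0.032, interval 0.06 to 0.20), which passed at an edgeR adjusted p of 0.0463. The call was close to its limit. The adjusted p was 0.0597 by limma-voom with the same block, 0.0987 on RSEM counts, 0.554 without replicate 2 and 0.071 without replicate 3, and 9.77e-05 without replicate 1. For the fits that left out a replicate, the share of all genes that passed is not given here.

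BIK, a BH3-only protein of the endoplasmic reticulum, was counted on 9, 14 and 17 fragments in DMSO and on 19, 15 and 15 in S767. The groups overlapped, and the log2 fold change of 0.29 had an interval of -0.53 to 1.12 (exact permutation p = 0.5). At BIK, 54.8 to 76.3% of the fragments came from the opposite strand, so even this low count is uncertain.

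**Figure D2:**
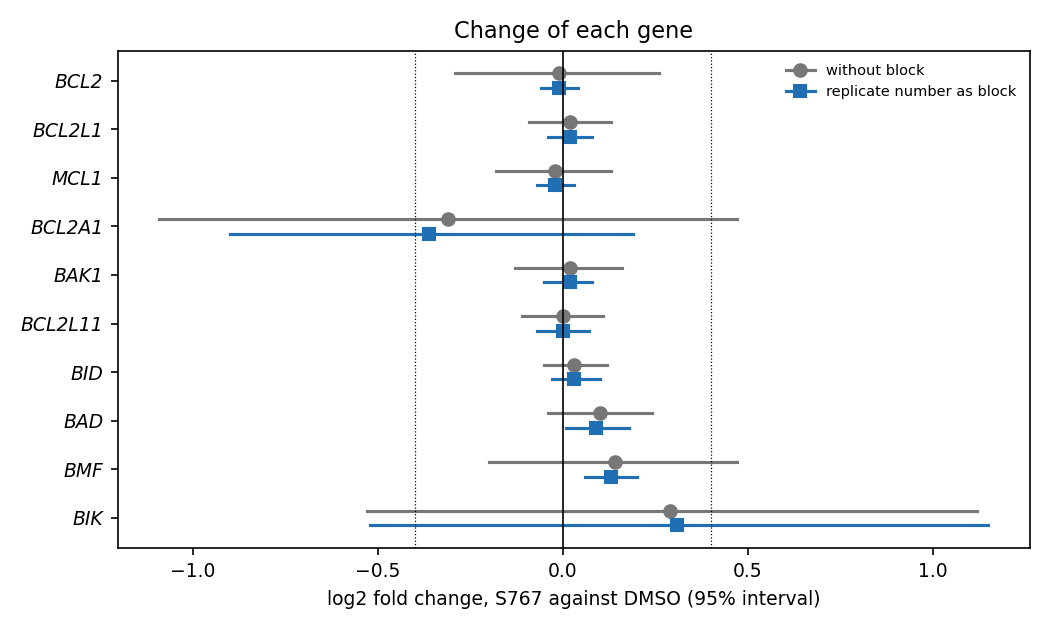
Log2 fold change of S767 against DMSO for each gene (points) with its 95% interval (lines), without the block in grey and with the replicate number as a block in blue; dotted lines mark 0.4 in either direction, the limit of the study. BMF and BAD alone have a blue interval above 0, and the wide intervals belong to BCL2A1 and BIK.

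As a group, the 10 genes had a median log2 fold change of 0.018, beside 0.00 over all genes tested, with 7 above 0 and 3 below. The share of all tested genes above 0 was 49.8%. Without the block, 0 of 10 passed an unadjusted P of 0.05 in edgeR, where 3.53% of all genes did, and the count was also 0 by limma-voom, against 3.42% of all genes, and by DESeq2, against 3.07%. Likewise 0 of 10 passed the limits of P under 0.05 with a fold change beyond 0.4, which 0.429% of all genes passed above and 0.796% below. None passed the adjusted limit in edgeR, which 0.00483% of all genes did, and the adjusted p was 1.0 after rounding for each of the 10. With the block, 2 of 10 (BAD and BMF) passed an unadjusted 0.05, against a background of 16.8%, and 1 of 10 (BMF) passed the adjusted limit, against 3.23%.

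The design left little room for larger changes in the genes above 1 TPM. Without the block, 7 of these 8 had an interval within 0.4 of 0 on the log2 scale, and the exception was BMF, with an upper bound of 0.47. With the block, all 8 intervals lay within 0.2. Split by role, 1 of the 4 pro-survival genes and 5 of the 5 BH3-only genes had an estimate above 0, with medians of -0.018 and 0.097. Of all genes tested, 49.8% were above 0. These counts include the uncertain BCL2A1 and BIK, and BCL2L11 at 0.002, whose sign changed between alternatives. A difference between the roles was not tested. With all 6 libraries, BMF was the 1 gene of the 10 to pass an adjusted test, and that with the block. Without replicate 1 and with the block, BAD and BID passed it as well. The share of all genes that passed in that fit is not given here, so these calls have no background beside them.

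Differences between replicate numbers exceeded the difference between treatments in 6 of the 8 genes above 1 TPM. The same was true of 84.2% of all genes tested. The range between replicate numbers was 0.49 for BMF, 0.40 for BCL2, 0.21 for MCL1, 0.16 for BAK1, 0.09 for BCL2L1 and 0.06 for BCL2L11, as log2 CPM averaged over both treatments. The exceptions were BAD at 0.08 and BID at 0.02. What the replicate numbers share is not given in the sources used here, and its part in these levels was not tested.

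**Figure D3:**
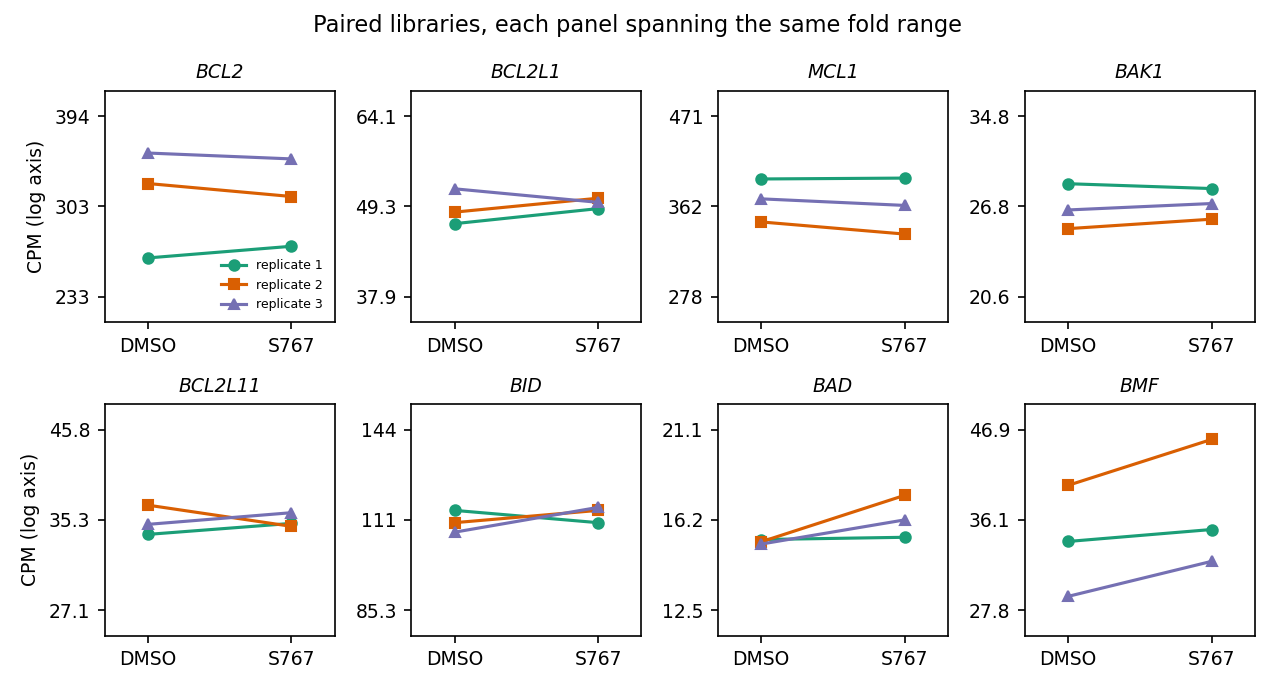
CPM (log axis) of the 8 genes above 1 TPM in DMSO and S767, with a line joining the libraries of each replicate number; every panel spans the same fold range. Lines stay nearly flat and apart for BCL2 and MCL1. All 3 BMF lines rise from different starting levels, though that of replicate 1, by 0.05 on the log2 scale, is nearly flat as well.

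The mean transcript length that RSEM weights by abundance was compared for the 9 genes with more than 1 length. For BMF it was 3596 ± 84.1 bases in DMSO and 3688 ± 119 bases in S767 (two-sided exact permutation p = 0.2), the lowest p of the genes. BCL2L11, which is spliced into several BIM forms, ranged from 3727 to 4614 bases, and both of these extremes were DMSO libraries (exact permutation p = 0.9). MCL1 was 3700 ± 18.7 against 3708 ± 27.6 bases (exact permutation p = 0.6). None of these tests could have reached a p below 0.1.

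Of 11 other genes of the BCL2 family, 7 had enough counts to be tested, and BCL2L10, BCL2L14, BOK and HRK did not. BBC3, which encodes the BH3-only protein PUMA, measured 14.4, 13.0 and 14.4 CPM in DMSO and 15.4, 16.1 and 16.0 CPM in S767. Its groups did not overlap, and its log2 fold change was 0.19 (SE 0.064, exact permutation p = 0.1, edgeR adjusted p = 0.0394 with the block and 1.0 without it). PMAIP1, which encodes the MCL1-binding protein NOXA, measured 42.3, 74.9 and 46.6 CPM in DMSO and 40.9, 47.3 and 43.9 CPM in S767. DMSO replicate 2 stood above the rest, and the log2 fold change was -0.31 (SE 0.187, exact permutation p = 0.5, edgeR adjusted p = 0.112 with the block). BCL2L2, counted on 149 to 296 fragments with 56.9 to 67.4% of fragments on the opposite strand, gave a log2 fold change of -0.29. BCL2L15 gave -0.14, BCL2L13 -0.04 and BCL2L12 0.01, and none of these 4 passed an unadjusted edgeR P of 0.05 without the block. With the block, 4 of the 7 tested genes passed it, where 16.8% of all genes did. BBC3 and BAX were higher, and PMAIP1 and BCL2L2 were lower. BCL2L2 then had -0.3 (interval -0.55 to -0.04, edgeR adjusted p = 0.214). BCL2L12, at 71.9 TPM in DMSO, was second only to BAX, at 247 TPM, among these genes.

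Together with this group, 68 genes that act around the 10 were listed, and 64 were tested. These lists were chosen with earlier results of these data known, so the shares of all genes beside them are for scale only. Without the block 2 of the 64 passed an unadjusted P of 0.05 in edgeR, FAS and BBC3, where 3.53% of all genes did. The adjusted limit was passed by 0 in edgeR, where 0.00483% of all genes passed. By DESeq2 it was passed by 1, and the share of all genes for that is not given here. With the block 15 passed unadjusted, 8 higher and 7 lower, where 9.38% of all genes passed in the higher and 7.39% in the lower direction. Past the adjusted limit were 5, 3 higher and 2 lower, beside 2.16% and 1.08% of all genes.

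On the death receptor route, which ends in the cleavage of BID by caspase-8, 2 of 10 genes passed the adjusted limit with the block, both higher, where 2.16% of all genes did. FAS, the receptor of FAS ligand, measured 8.46, 6.71 and 7.16 CPM in DMSO and 11.0, 9.63 and 9.64 CPM in S767. At FAS, 38.6 to 44.6% of the fragments came from the opposite strand, and these were not counted. Its groups did not overlap, and the log2 fold change was 0.44 (SE 0.103, exact permutation p = 0.1, edgeR adjusted p = 0.000574 with the block and 1.0 without it). TNFRSF10B, a receptor of TRAIL, had a log2 fold change of 0.12 (edgeR adjusted p = 0.0146 with the block and 1.0 without it). BID itself had 0.03, and TNFRSF1A, the most abundant of these receptors at 77.8 TPM in DMSO, had 0.01.

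Downstream of the mitochondria, 0 of 13 genes of the apoptosome and the caspases passed the adjusted limit of edgeR with the block, where 3.23% of all genes did, and 3 passed unadjusted, where 16.8% did. DIABLO, 1 of the 13, was counted on 143 to 227 fragments, while RSEM gave it 45.2 TPM in DMSO. The test of DIABLO therefore rests on few fragments. CYCS, cytochrome c, was at 381 TPM in DMSO and had a log2 fold change of -0.01, and AIFM1 had 0.04. Of 6 inhibitors of apoptosis, 0 passed unadjusted or adjusted in edgeR with or without the block, with -0.02 for BIRC5 and 0.01 for BIRC6.

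Among 16 binding partners and modifiers of the 10 proteins, BAG3, a co-chaperone that stabilises MCL1 and BCL2, was the 1 gene past the adjusted limit with the block, where 3.23% of all genes passed. Its log2 fold change was -0.11 (edgeR adjusted p = 0.0417 with the block and 1.0 without it). DYNLL1, a dynein light chain that binds BIM, was at 429 TPM in DMSO with 0.01, and YWHAZ, a 14-3-3 protein that retains phosphorylated BAD, was at 423 TPM with -0.04. Of 12 transcription factors known to act on these genes, JUN, which can induce BCL2L11, passed with the block at -0.22 (edgeR adjusted p = 0.0247), and without it had -0.21 (adjusted p = 1.0). MYB and CEBPA, the most abundant of them at 218 and 110 TPM in DMSO, had -0.01 and -0.07.

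**Figure D4:**
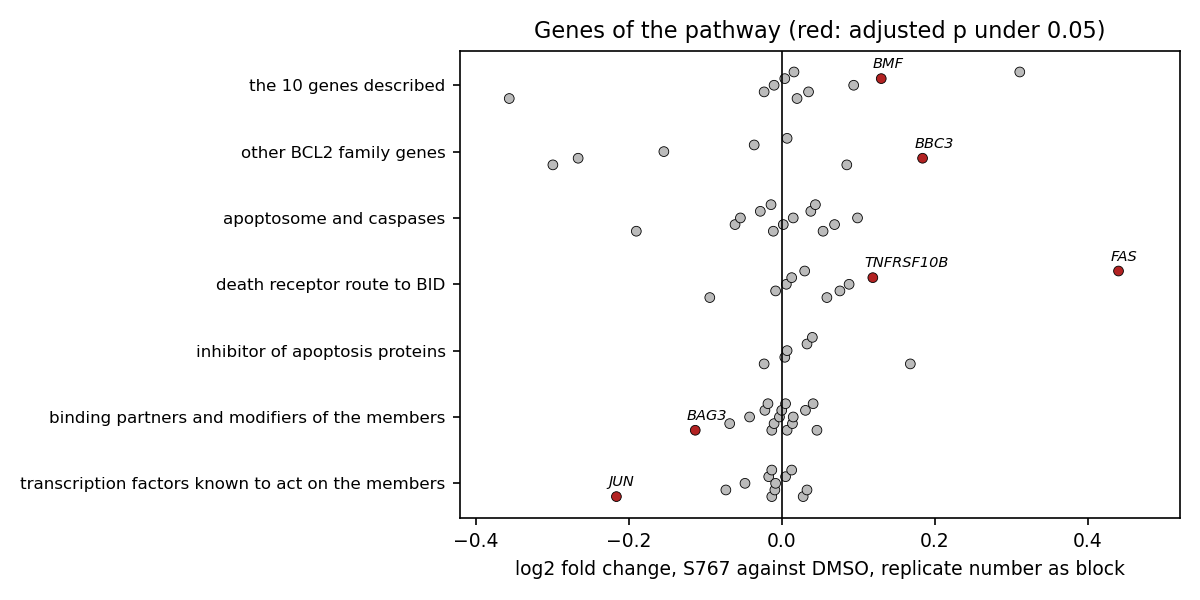
Log2 fold change of S767 against DMSO with the replicate number as a block, for the 10 genes and for each list around them; each point is a gene tested, red where the edgeR adjusted p is under 0.05. BMF is the red point among the 10, and the red points elsewhere are BBC3, TNFRSF10B and FAS above 0 and BAG3 and JUN below.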

How the data were processed

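RNA of OCI-AML5 cells was sequenced in 3 DMSO and 3 S767 libraries, grouped by treatment and replicate number in the labels. The authors deposited raw fragment counts per gene from STAR 2.7.1a, for each strand, without normalization. The authors also deposited RSEM 1.2.28 tables with expected counts, with TPM values that RSEM scales within a library, and with gene lengths. Versions and the build, GRCh38, are those of the submitters' processing notes, and the annotation release is not given in the sources used here. The 4 lines of each count table that name no gene held 20.3% of fragments and were left out.

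Reverse-strand counts were used, since the opposite strand held 6.44 to 6.58%. Genes were kept with filterByExpr (minimum count 10), scaled with TMM and compared with edgeR 4.0.16 (quasi-likelihood test, R 4.3.3). P values of the 20725 genes tested were adjusted by the Benjamini-Hochberg method. TPM gave levels between genes. Single values (log2 CPM with a prior count of 2, or transcript length) were also compared by two-sided exact permutation. Total gene counts of 149994700 to 258029564 make counting error small for the 10 genes except for BCL2A1 and BIK. Some genes around them also had few fragments, among them BCL2L2 (149 to 296), BCL2L15 (86 to 139) and DIABLO (143 to 227). The fit was tested on simulated data.

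Replicate numbers paired the libraries: deviations from group means over 6191 genes correlated at 0.78, 0.87 and 0.75 for equal numbers and were negative for all others. This comes from the values, not the labels.

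Alternatives were DESeq2 1.42.0, limma-voom from limma 3.58.1, scaling by library size alone or by RLE factors, no filter or 10 counts in every library, the replicate block alone and in combinations, RSEM counts rounded to whole numbers, counts without regard to strand, log2(TPM + 1), log2(TPM + 0.1), and leaving out each library or pair. The 10 genes, the lists around them and the tests were chosen with earlier results of these data known. All 10 genes and the other family genes were named or counted, and from each other list the genes with P under 0.05, or adjusted p under 0.05 with the block, and the 2 with the highest TPM. BH3 and BH1 stretches were read from GENCODE 29 transcripts, since most gene identifiers in the files are of a neighbouring version.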

Additional observations from a re-analysis of the deposited data

How the results depend on the processing

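Over 23 alternatives, 203 of 229 recomputed fold changes of the 10 genes kept their direction and their side of the adjusted limit. Under the replicate block, 2 genes passed an unadjusted P of 0.05 (also 2 with limma-voom, with library size alone and with RSEM counts), 1 passed adjusted (1 with library size alone, BMF at 0.13 and adjusted p = 0.0481, but 0 with limma-voom, BMF at 0.0597, and 0 with RSEM counts, BMF at 0.0987), and among the genes around them 15 passed unadjusted and 5 adjusted. The block changed no other call. DESeq2 passed 1 of the surrounding genes, and log2(TPM + 0.1) gave 1 of the 10 an unadjusted P under 0.05. Leaving out libraries or pairs gave 0 to 4 genes unadjusted, 0 to 1 beyond 0.4 (BCL2A1, without S767 replicate 1, or without replicate 1 with the block) and 0 to 3 adjusted (BMF at 0.17, BAD and BID, without replicate 1 with the block). The cause was not tested. Shares of all genes for the fits that left out libraries or pairs are not given here, so these counts have no background beside them.

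Sign changes numbered 21, in 7 genes, none past the adjusted limit and none over 0.08 in size. When libraries or pairs were left out, BCL2 ranged from -0.13 to 0.08, with values of 0.0098 (replicate 2 left out, with the block), 0.01, 0.08 and 0.08 (DMSO replicate 2, DMSO replicate 3 or S767 replicate 1 left out). BCL2L1 ranged from -0.01 (without DMSO replicate 1) to 0.06 and was -0.0027 without replicate 1 with the block. MCL1 ranged from -0.08 to 0.04 (without S767 replicate 2), and BAK1 from -0.03 (without DMSO replicate 2) to 0.07. BMF ranged from -0.03 (without S767 replicate 2) to 0.26. BCL2L11 ranged from -0.02 to 0.05 and BID from -0.00021 (without replicate 3, with the block) to 0.08. BCL2L11 also became -0.00089 with library size alone, -0.00092 with RSEM counts, -0.02 with log2(TPM + 1) and -0.03 with log2(TPM + 0.1). The difference in transcript length of BMF, 91.3 bases, ranged from 38.7 to 156.1 when a library was left out, and that of BCL2L11, 21.5 bases, from -243.9 to 199.5. Every interval given rests on 3 libraries per group and on a spread that edgeR moderates over all genes. With the block, that spread is the one left after differences between replicate numbers are removed.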
